A study of Mus musculus with 24 samples.

Results

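The 34 genes described here are imprinted genes that lie outside the *Dlk1-Dio3* cluster of chromosome 12. They were taken from a list of known imprinted genes and looked up by gene identifier, and all 34 of the 34 were present among the 47937 genes of both count tables. The question put to them was whether the loss of RNA seen at *Dlk1-Dio3* in *Mettl3* KO cells is shared by other imprinted loci. Nuclear RNA of 4 mouse embryonic stem (ES) cell lines was sequenced in 8 RNA-seq libraries and 16 libraries of MeRIP, an immunoprecipitation (IP) of RNA with an antibody against N6-methyladenosine (m6A), with an input library beside each IP. Every group held 2 biological replicates. WT26 is a wild-type ES line, and its *Mettl14* KO derivative is 1 clone (A10) with a frameshift deletion made by CRISPR. RBC carries BirA-V5 and Cre-ERT2 at *Rosa26*, and its *Mettl3* KO derivative is 1 clone (2c4d) obtained from an earlier study. All lines have a mixed 129/Sv and C57Bl6 background and were grown in serum replacement with LIF. Each knockout is a single clone, so clone and knockout cannot be told apart, and RBC and *Mettl3* KO share the *Rosa26* alleles that WT26 and *Mettl14* KO lack.

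Imprinted genes are expressed from 1 parental allele, as set by DNA methylation that is laid down in the germ line at imprint control regions and is kept in the embryo by factors such as ZFP57, TRIM28 and DNMT1. Many of them act on growth and on the placenta, and long noncoding RNAs such as *Kcnq1ot1* and *Airn* silence neighbouring genes on their own chromosome. ES cells in culture are known to lose or gain imprints. METTL3 and METTL14 form the complex that writes m6A on nuclear RNA. Read counts per gene do not separate the parental alleles, so a gain or loss of imprinting was not measured in these data. In bulk RNA, fewer cells with a transcript and less transcript per cell cannot be told apart.

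RNA-seq totals lay between 11321459 and 13743181 reads per library, and MeRIP totals between 9394163 and 28441282, with each replicate 1 library deeper than its replicate 2 partner. The members took 0.268% to 0.299% of the RNA-seq reads. *Mettl14*, the targeted gene of the first knockout, held 401 and 358 normalised counts in WT26 and 296 and 316 in *Mettl14* KO, and *Mettl3* held 928 and 979 in RBC but 880 and 821 in *Mettl3* KO. Normalised counts are reads divided by the size factor of the library. RNA of both targeted genes was present in their knockouts, so the gene counts are no check of the labels. Summed normalised counts of 10 ES cell markers ranged from 18569 to 29777 over the 8 libraries, with no marker at 0, and were lowest in the knockouts. Sums of 10 primitive endoderm markers ranged from 15683 to 15953 in WT26, from 6431 to 6533 in *Mettl14* KO, from 11501 to 11661 in RBC and from 3601 to 3665 in *Mettl3* KO. Most of that sum was *Lama1* and *Col4a1*, and the list did not move as one: of its 7 tested markers, 5 were called up (*Gata6*, *Gata4*, *Sox7*, *Pdgfra* and *Dab2*) and 1 down in *Mettl14* KO, the median being 1.62 on the log2 scale, and 0 up and 3 down in *Mettl3* KO, the median being −0.97. Of all tested genes 7.95% were called up and 6.57% down in *Mettl14* KO, and 6.15% up and 7.43% down in *Mettl3* KO. Sums of 10 trophoblast markers lay between 359 and 621, of 10 neural markers between 1851 and 2711 and of 10 fibroblast markers between 14024 and 22619. Nearly all of the fibroblast sum was *Fn1*, at 13930 to 22479 normalised counts. In each library 2 to 4 of the fibroblast markers were at 0. Summed counts of 4 Y-linked genes, chosen after their values were seen, were 3707 and 3517 for WT26, 8246 and 8036 for *Mettl14* KO, 206 and 166 for RBC and 751 and 664 for *Mettl3* KO. The part of these differences between lines in the results below was not tested.

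Promoter sequence bears on these genes because their promoters often lie in the methylated control regions. RefSeq windows of GRCm38.p6 were found for 27 of the 34 members. *H19*, *Peg10*, *Sgce*, *Cdkn1c*, *Impact*, *Peg13* and *Trappc9* had no window to use here. Shown are the 250 bases before the start of the 5 members that had a window and were called in a knockout against its own control line, each 5′ to 3′ on the strand of the gene. Capitals mark TGCCGC or its reverse complement GCGGCA, the core hexamer bound by ZFP57. The windows are chr10:13090582-13090831 (plus strand) for *Plagl1*, chr7:6730420-6730669 (minus) for *Peg3*, chr11:12037421-12037670 (minus) for *Grb10*, where the more upstream of its 2 windows is given, chr17:12741061-12741310 (plus) for *Airn* and chr7:62348027-62348276 (plus) for *Ndn*.
Plagl1: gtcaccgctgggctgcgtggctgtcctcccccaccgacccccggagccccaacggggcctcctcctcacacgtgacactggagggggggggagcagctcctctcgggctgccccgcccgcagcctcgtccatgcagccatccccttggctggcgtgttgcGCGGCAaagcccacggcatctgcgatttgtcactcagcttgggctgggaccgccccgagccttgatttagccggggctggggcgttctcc
Peg3: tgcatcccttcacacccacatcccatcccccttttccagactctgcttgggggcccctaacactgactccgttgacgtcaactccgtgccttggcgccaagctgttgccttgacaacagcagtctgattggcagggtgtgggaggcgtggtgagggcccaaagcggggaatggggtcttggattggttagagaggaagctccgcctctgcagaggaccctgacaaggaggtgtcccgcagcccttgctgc
Grb10: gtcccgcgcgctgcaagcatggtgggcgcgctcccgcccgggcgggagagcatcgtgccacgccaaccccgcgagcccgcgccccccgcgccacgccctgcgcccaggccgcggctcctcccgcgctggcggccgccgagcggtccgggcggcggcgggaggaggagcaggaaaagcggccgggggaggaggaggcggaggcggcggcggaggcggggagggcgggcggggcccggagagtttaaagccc
Airn: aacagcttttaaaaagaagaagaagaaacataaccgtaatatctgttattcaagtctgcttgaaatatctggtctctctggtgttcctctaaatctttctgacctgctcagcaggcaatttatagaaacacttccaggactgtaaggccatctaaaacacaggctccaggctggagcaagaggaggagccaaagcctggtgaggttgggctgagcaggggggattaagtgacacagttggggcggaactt
Ndn: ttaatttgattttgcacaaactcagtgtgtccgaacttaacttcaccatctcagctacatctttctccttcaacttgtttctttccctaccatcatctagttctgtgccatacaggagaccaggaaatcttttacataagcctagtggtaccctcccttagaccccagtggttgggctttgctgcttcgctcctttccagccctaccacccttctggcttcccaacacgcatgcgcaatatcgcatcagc

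The hexamer occurred on either strand in 1 of these 5 windows, that of *Plagl1*. Counting every window of a gene, it was present before 5 of the 27 members (*Mcts2*, *Mest*, *Nap1l5*, *Plagl1* and *Zim1*; 18.5%) against 9.84% of the 27025 genes with windows. Of the 7 *Dlk1-Dio3* genes with windows, *Meg3* had it. The member windows held a median of 12 CpG dinucleotides and all 32851 windows a median of 6. CpG content differed widely among the 5 sequences, from 2 in *Airn* and 5 in *Ndn* to 8 in *Peg3*, 19 in *Plagl1* and 40 in *Grb10*. The *Peg3* window overlapped by 163 bases with that of *Usp29*, which is transcribed in the other direction from the same promoter region. A match is a description of the letters, and no match draws nothing about binding of ZFP57.

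The members spanned a wide range of levels. Per kb of annotated exon, *Igf2r*, the receptor that clears IGF2, had the highest mean over the 4 lines, 476 normalised counts per kb. It was followed by *Mest* (405) and by *Grb10* (388), an adaptor that restrains insulin signalling. At the other end *Magel2* (1.99 per kb) and *Nap1l5* (1.84 per kb) were close to absent. Of the 34 members, 31 passed the filter on low counts and were tested among 17021 genes. *H19*, *Ascl2* and *Nap1l5* did not pass it, with at most 11.5, 8.6 and 8 normalised counts in a library. Over the 4 lines, *Peg3* varied most of the tested members, 14-fold between the highest and the lowest line mean. *Cdkn1c* varied 5.56-fold and *Sgce* 4.23-fold. *Kcnq1ot1*, the noncoding RNA of the *Kcnq1* domain, varied least, 1.05-fold.

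In *Mettl3* KO against RBC cells, 3 of the 31 tested members were called, by an adjusted p that did not exceed 0.05 in edgeR's quasi-likelihood test (Benjamini-Hochberg over all genes) together with a log2 fold change over 1 in size. *Peg13* rose, and *Plagl1* and *Peg3* fell. Of all tested genes 6.15% were called up and 7.43% down in this comparison, so the called share of the members (9.68%) did not stand above that of genes at large. The median log2 fold change of the members was 0.09, beside 0 for all genes. On the adjusted p alone 18 members (58.1%) passed, 11 up and 7 down, beside 25.2% of all genes up and 28.1% down.

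*Plagl1* encodes a zinc finger factor expressed from the paternal allele that controls other imprinted genes, and lies at chr10:13060504-13131694. It held 138 and 123 normalised counts in RBC and 38.3 and 36.3 in *Mettl3* KO, against 83.2 and 58 in WT26 and 109 and 122 in *Mettl14* KO. The *Mettl3* KO libraries were the lowest of all 8 and did not overlap with RBC. The log2 fold change was −1.8 (SE 0.194, edgeR adjusted p = 4.24e-07).

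*Peg3*, a paternally expressed zinc finger gene at chr7:6703892-6730431, fell in a stepwise order over the lines. Its normalised counts were 3795 and 3908 for WT26, 2081 and 2016 for *Mettl14* KO, 843 and 800 for RBC and 270 and 280 for *Mettl3* KO. No pair of lines overlapped. In *Mettl3* KO the log2 fold change against RBC was −1.58 (SE 0.0602, edgeR adjusted p = 7.82e-13). In *Mettl14* KO against WT26 it was −0.91 (SE 0.0461, edgeR adjusted p = 3.17e-11), below the fold limit.

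*Peg13*, a noncoding RNA of 1 exon inside an intron of *Trappc9* (chr15:72805600-72810324), had 87.4 and 82.8 normalised counts in RBC and 197 and 145 in *Mettl3* KO. In WT26 it had 100 and 97.7 and in *Mettl14* KO 93.1 and 93.5, so only the *Mettl3* KO libraries stood apart. The log2 fold change was 1.02 (SE 0.158, edgeR adjusted p = 3.11e-05), and it was 0.98 without replicate 2 of RBC and 0.77 without replicate 1 of *Mettl3* KO, below the fold limit in both. Its host *Trappc9* had a log2 fold change of 0.54 (edgeR adjusted p = 3.17e-05). *Peg13* lies on the same strand as *Trappc9*, so in nuclear RNA reads of unspliced *Trappc9* cannot be told apart from those of *Peg13*.

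The *Dlk1-Dio3* cluster, measured in the same fit, went further. All 6 of its tested genes were called down in *Mettl3* KO, with a median log2 fold change of −4.48. The maternally expressed noncoding RNAs led: *Meg3* had 5815 and 5391 normalised counts in RBC and 30.4 and 27.2 in *Mettl3* KO, a log2 fold change of −7.59 (SE 0.0813). The log2 fold change was −7.17 for *Rian* and −7.18 for *Mirg*, and −1.8 for *Dlk1*, −1.41 for *Dio3* and −1.18 for *Begain*, neighbours with few reads in ES cells. The lowest value among the members, −1.8 for *Plagl1*, was the same as that of *Dlk1*, which rested on few reads (19.5 and 10.8 in RBC, 3.5 and 5 in *Mettl3* KO). None of the 31 tested members came near the fall of *Meg3*, *Rian* and *Mirg*. In *Mettl14* KO against WT26 the cluster fell less, with a median log2 fold change of −0.64. There 1 of its 6 tested genes was called down and 4 passed the adjusted p downward, beside 6.57% and 27% of all genes. *Meg3* had 4040 and 4050 normalised counts in WT26 and 2556 and 2593 in *Mettl14* KO. The order of the members and the cluster is shown in the plot of fold changes.

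**Figure D1:**
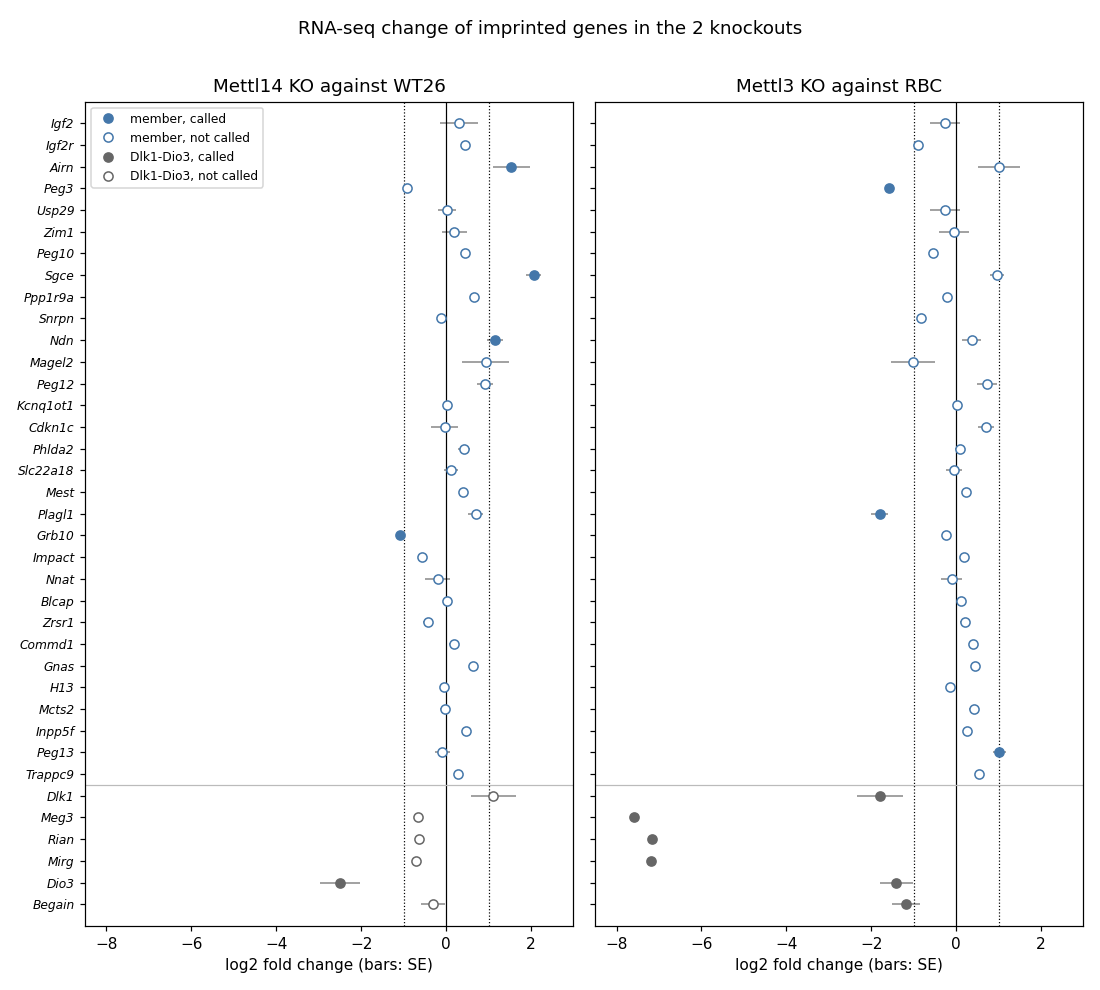
RNA-seq log2 fold change (x axis) with its standard error for the 31 tested members (blue) and 6 *Dlk1-Dio3* genes (grey) in *Mettl14* KO against WT26 (left) and *Mettl3* KO against RBC (right); filled points were called, and dotted lines mark a log2 fold change of 1 in size. The members lie between −1.8 and 2.06, while *Meg3*, *Rian* and *Mirg* lie below −7 in *Mettl3* KO only.

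In *Mettl14* KO against WT26 cells, 4 of the 31 tested members were called. *Sgce*, *Airn* and *Ndn* rose and *Grb10* fell. Of all tested genes 7.95% were called up and 6.57% down, near the 12.9% of members called in both directions together. The members' median log2 fold change was 0.20 and that of all genes 0. On the adjusted p alone 17 members (54.8%) passed, 13 up and 4 down, beside 25.5% of all genes up and 27% down.

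*Sgce*, which encodes the membrane protein epsilon-sarcoglycan (chr6:4674350-4747207), held 38 and 26.8 normalised counts in WT26 and 132 and 142 in *Mettl14* KO. Its log2 fold change was 2.06 (SE 0.182, edgeR adjusted p = 4.07e-08). It also stood higher in *Mettl3* KO (119 and 114) than in RBC (59.8 and 60.1), with a log2 fold change of 0.96 (adjusted p = 0.000111), just under the fold limit. The groups did not overlap in either comparison.

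*Grb10* (chr11:11930508-12038683) went the other way. It had 4759 and 4967 normalised counts in WT26 and 2214 and 2337 in *Mettl14* KO, a log2 fold change of −1.10 (SE 0.05, edgeR adjusted p = 8.74e-12). In RBC it had 3804 and 3723 and in *Mettl3* KO 3125 and 3267, a log2 fold change of −0.24 (adjusted p = 0.000589). It was the most deeply counted of the 7 members called in a knockout.

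*Ndn*, an intronless gene of the Prader-Willi cluster that encodes the growth suppressor necdin (chr7:62346569-62350262), had 41.6 and 51.5 normalised counts in WT26 and 113 and 92.5 in *Mettl14* KO. RBC held 40.2 and 44.4 and *Mettl3* KO 51.3 and 58.4. The log2 fold change in *Mettl14* KO was 1.15 (SE 0.191, edgeR adjusted p = 6.54e-05) and fell to 0.99 without replicate 1 of WT26.

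*Airn*, the noncoding RNA that runs against *Igf2r* (chr17:12741311-12860136), was scarce, with 6.3 and 5.4 normalised counts for WT26, 17 and 17.5 for *Mettl14* KO, 4.6 and 5.9 for RBC and 12.2 and 9.1 for *Mettl3* KO. Both knockouts were above their control lines. The log2 fold change was 1.53 (SE 0.433, edgeR adjusted p = 0.00645) in *Mettl14* KO, where DESeq2 gave an adjusted p of 0.0857, and 1.0 (adjusted p = 0.0993) in *Mettl3* KO. The *Airn* transcript overlaps the start of *Igf2r* on the other strand, and where counting ignored strand its reads and those of unspliced *Igf2r* cannot be told apart. The strand setting is not given in the sources used here.

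**Figure D2:**
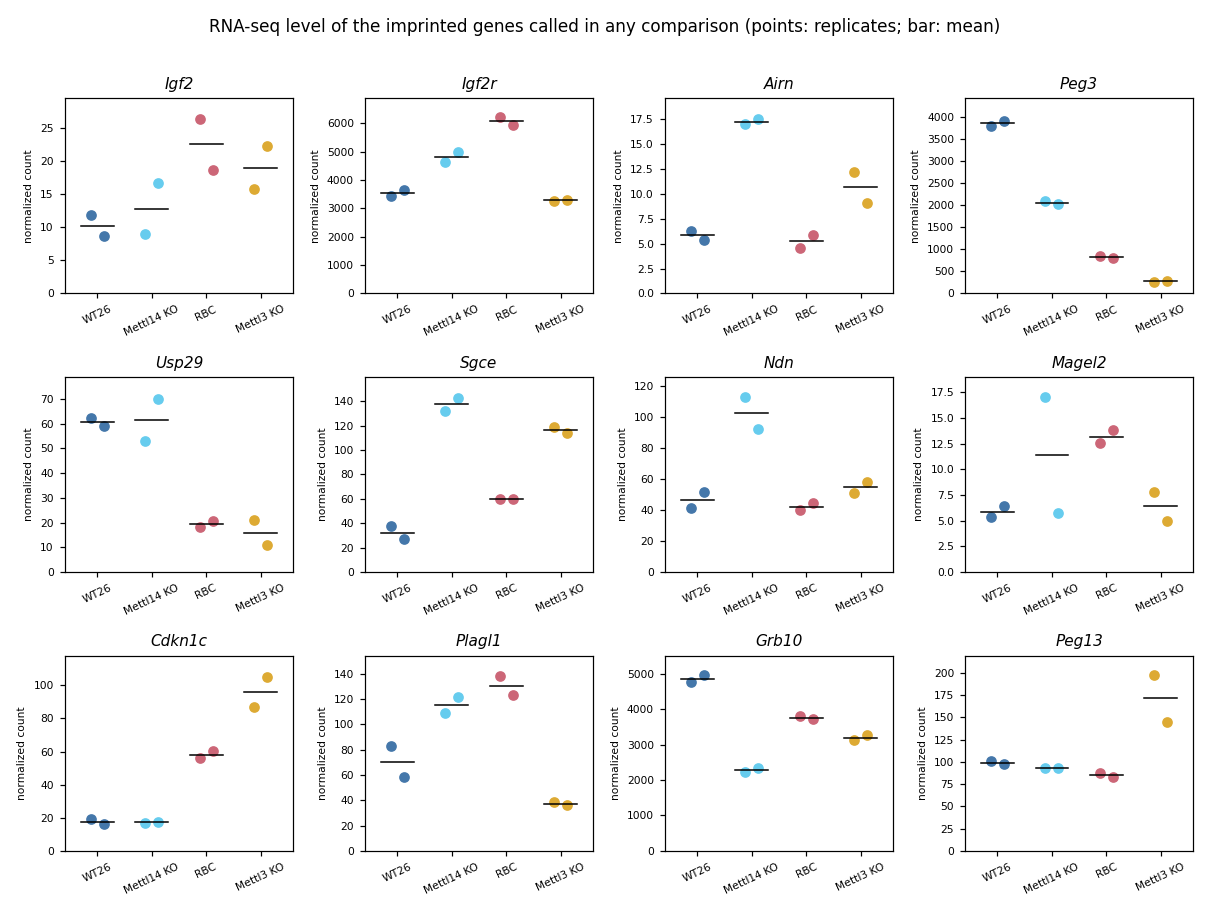
Normalised RNA-seq counts (y axis, linear, from 0) of the 12 members called in any RNA-seq comparison, in the 4 lines (x axis); points are the 2 replicates and bars their mean. *Peg3* steps down from WT26 to *Mettl3* KO, *Plagl1* and *Peg13* stand apart in *Mettl3* KO, and the 2 *Mettl14* KO replicates of *Magel2* lie far from each other.

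No member was called in both knockouts, and 7 were called in either. Of all tested genes 14.5% were called and 52.5% passed the adjusted p in *Mettl14* KO. In *Mettl3* KO these shares were 13.6% and 53.4%. Joint shares over all genes were not counted, so the counts given here are not shown to be particular to the members. Of the 31 tested, 23 stayed within a log2 fold change of 1 in both knockouts, and 9 passed the adjusted p in neither. Both knockouts moved 8 members past the adjusted p in the same direction: *Gnas*, *Inpp5f*, *Mest*, *Peg12*, *Sgce* and *Trappc9* up, *Grb10* and *Peg3* down. They moved 5 in opposite directions: *Igf2r*, *Peg10*, *Plagl1* and *Ppp1r9a* were higher in *Mettl14* KO and lower in *Mettl3* KO, and *Impact* was lower in *Mettl14* KO and higher in *Mettl3* KO.

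The difference itself, the log2 fold change in *Mettl3* KO minus that in *Mettl14* KO, was called for 5 members, against 5.9% of all genes called up and 8.07% called down. *Plagl1* differed by −2.49 (SE 0.262, edgeR adjusted p = 6.57e-07), since it was 0.69 in *Mettl14* KO. *Igf2r* (chr17:12682406-12769664) differed by −1.33 (SE 0.0738, edgeR adjusted p = 2.63e-10). Its normalised counts were 3452 and 3644 for WT26, 4648 and 4971 for *Mettl14* KO, 6227 and 5922 for RBC and 3271 and 3283 for *Mettl3* KO. The log2 fold changes were 0.44 and −0.89, each past the adjusted p and within the fold limit. *Sgce* differed by −1.10 (adjusted p = 0.00209) and *Peg13* by 1.10 (adjusted p = 0.000857). *Magel2*, an intronless gene of the Prader-Willi cluster (chr7:62377010-62381640), differed by −1.94 (adjusted p = 0.0472) on 5.4 and 6.4 normalised counts for WT26, 17 and 5.8 for *Mettl14* KO, 12.6 and 13.8 for RBC and 7.8 and 5 for *Mettl3* KO. Of the *Mettl14* KO replicates of *Magel2*, 1 lay at the level of WT26 and 1 above every other library. The call of *Magel2* was lost without any 1 of 7 of the 8 libraries, and its adjusted p was 0.415 without replicate 1 of *Mettl14* KO. The difference was −0.89 for *Sgce* without replicate 2 of WT26 and 0.86 for *Peg13* without replicate 1 of *Mettl3* KO, below the fold limit.

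The control lines differed too. Between RBC and WT26, 4 members were called, where 4.86% of all genes were called up and 4.12% down, and 18 (58.1%) passed the adjusted p alone, beside 38.9% of all genes. *Peg3* was lower in RBC by a log2 fold change of −2.23 (SE 0.05, edgeR adjusted p = 8.78e-16), a larger step than in either knockout. Its neighbour *Usp29*, a ubiquitin protease gene (chr7:6730578-6967219), had 62.4 and 59 normalised counts in WT26 and 53.1 and 70.1 in *Mettl14* KO, but 18.4 and 20.7 in RBC, with 20.9 and 11.1 in *Mettl3* KO. It differed by −1.63 between the control lines (adjusted p = 0.000144), while its log2 fold change was 0.02 (SE 0.219) in *Mettl14* KO and −0.27 (SE 0.357) in *Mettl3* KO. *Cdkn1c*, a maternally expressed cell cycle inhibitor (chr7:143458339-143461050), was higher in RBC (56.3 and 60.1) than in WT26 (19 and 16.1), a log2 fold change of 1.72 (adjusted p = 2.92e-05). It was 17 and 17.5 in *Mettl14* KO but 87 and 105 in *Mettl3* KO, where the log2 fold change was 0.71 (adjusted p = 0.00328). *Igf2*, the fetal growth factor (chr7:142650766-142666816), had 11.8 and 8.6 normalised counts for WT26, 9 and 16.6 for *Mettl14* KO, 26.4 and 18.7 for RBC and 15.7 and 22.2 for *Mettl3* KO. The control lines differed by 1.11 for *Igf2* (adjusted p = 0.0376), with an adjusted p of 0.169 in DESeq2, 0.0774 and 0.175 without replicate 1 or 2 of WT26 and 0.221 without replicate 1 of RBC. These comparisons share the control samples with those of the knockouts.

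By parental allele, the 19 tested members of the 20 listed as paternally expressed included 3 called up in *Mettl14* KO, and 1 called up and 2 called down in *Mettl3* KO. Their median log2 fold changes were 0.31 and 0.19. Of the 13 listed as maternally expressed 11 were tested, with 1 called down in *Mettl14* KO and none in *Mettl3* KO, and medians of 0.18 and −0.06. The called share of the paternal group was 15.8% in each knockout, and that of the maternal group 9.09% and 0%. Of all tested genes 14.5% were called in *Mettl14* KO and 13.6% in *Mettl3* KO. *Gnas*, which has isoforms of either allele, had log2 fold changes of 0.63 and 0.45. Both parental groups thus held members on either side of 0 in both knockouts.

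Within a cluster the members did not move as one. In the *Kcnq1* domain, *Kcnq1ot1* had log2 fold changes of 0.02 (SE 0.0567) in both knockouts, with 13849 to 15528 normalised counts in every library. Of the genes that it silences on the paternal chromosome, *Phlda2*, a placental growth restrictor, was 0.42 in *Mettl14* KO (adjusted p = 0.0153) and 0.09 in *Mettl3* KO. *Slc22a18*, a transporter gene, was 0.11 and −0.06, and neither passed. In the *Peg10* cluster, where *Peg10* comes from a retrotransposon and is needed for the placenta, *Peg10* was 0.44 in *Mettl14* KO but −0.54 in *Mettl3* KO, and *Ppp1r9a*, which encodes a neuronal scaffold protein, was 0.65 and −0.22. All 4 values passed the adjusted p (at most 0.000864), while *Sgce*, which starts beside *Peg10* on the other strand, was higher in both knockouts.

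In the Prader-Willi cluster *Snrpn*, a splicing protein gene near the control region, was −0.11 in *Mettl14* KO (adjusted p = 0.325) and −0.83 in *Mettl3* KO (adjusted p = 3.41e-06), with 367 and 295 normalised counts in RBC and 184 and 188 in *Mettl3* KO. Its intronless neighbour *Peg12* was 0.92 and 0.73 (adjusted p = 0.000561 and 0.0138). So in *Mettl3* KO *Snrpn* was lower than in RBC while *Peg12* was higher. In the *Peg3* cluster the maternally expressed zinc finger gene *Zim1* was 0.20 and −0.06 and did not pass in either knockout.

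Several members lie inside the intron of another gene. For *Mcts2*, which lies on the same strand as its host *H13*, unspliced host RNA may add to the counts. *Mcts2*, a copy of a translation factor gene within *H13*, was −0.03 in *Mettl14* KO but 0.42 in *Mettl3* KO (adjusted p = 0.00497), and *H13*, a signal peptide peptidase gene, was −0.05 and −0.16. *Zrsr1*, a copy of a splicing factor gene within *Commd1*, was −0.44 (adjusted p = 0.0018) and 0.21, and *Commd1* itself was 0.18 and 0.40 (adjusted p = 0.00108). The exons of *Zrsr1* and *Commd1* overlap by 412 bases on opposite strands, so their counts may hold shared reads. *Nnat*, which encodes the brain proteolipid neuronatin and lies within *Blcap*, was −0.20 and −0.11, and *Blcap* was 0.02 and 0.12, with no pass in either. *Impact*, a translation regulator gene, was −0.56 and 0.19, *Mest*, a hydrolase gene expressed in mesoderm, 0.40 and 0.23, and *Inpp5f*, an inositol phosphatase gene, 0.47 and 0.26, all past the adjusted p. These were changes of less than a log2 fold change of 1.

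The MeRIP input libraries gave a separate measure of RNA level. In input, 1 member was called in *Mettl14* KO against WT26, *Grb10* at −1.15 (SE 0.227, edgeR adjusted p = 0.0479), where 0.124% of 22621 features were called up and 0.274% down. In *Mettl3* KO against RBC 1 member was called, *Peg3* at −1.48 (SE 0.274, edgeR adjusted p = 0.0237), where 0.181% were called up and 0.57% down. *Peg3* had 496 and 496 normalised input counts in RBC and 175 and 181 in *Mettl3* KO, and *Grb10* had 3157 and 2479 in WT26 and 1342 and 1200 in *Mettl14* KO. Neither overlapped with its control line, but leaving out any 1 of the 4 input libraries of a comparison gave 0 called members. At an unadjusted p under 0.05 there were 3 and 6 members, where 10.6% and 11.7% of all features were. Of the 7 calls made in RNA-seq, 7 had the same direction in input: *Sgce* 1.79, *Ndn* 0.78, *Airn* 0.28 and *Grb10* −1.15 in *Mettl14* KO, and *Peg3* −1.48, *Plagl1* −1.08 and *Peg13* 0.66 in *Mettl3* KO. The input counts of *Airn* overlapped, with 14.1 and 18.2 normalised counts in WT26 and 13.5 and 27.4 in *Mettl14* KO. How many of all genes called in RNA-seq kept their direction in input was not counted, so this is not shown to be particular to the members. Over the 31 members the log2 fold changes of both assays had a Pearson r of 0.87 for *Mettl14* KO and 0.73 for *Mettl3* KO, as a description across genes of the same lines. In the input of *Mettl3* KO, 4 of 7 tested *Dlk1-Dio3* genes were called down (*Meg3* −8.11, *Rian* −7.57, *Rtl1* −7.27 and *Mirg* −7.25). *Rtl1* is uncertain among these, since it had at most 2.3 normalised counts in any RNA-seq library but 771 to 1103 in the input of the control lines. MicroRNA genes such as *Mir433* and *Mir127* lie across it on the other strand, and where counting ignored strand their precursor RNA and *Rtl1* cannot be told apart.

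**Figure D3:**
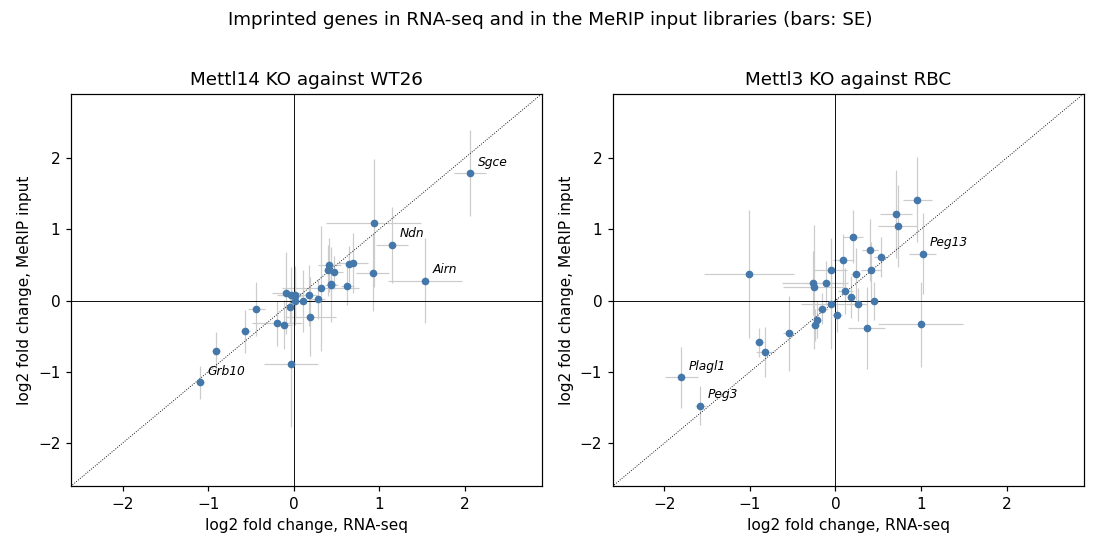
Log2 fold change in RNA-seq (x axis) and in the MeRIP input libraries (y axis) for the 31 members tested in RNA-seq, in *Mettl14* KO against WT26 (left) and *Mettl3* KO against RBC (right), with standard errors; the dotted line marks equal values, and the members called in RNA-seq are named. All 7 named members lie on the same side of 0 in both assays.

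The m6A IP over input ratio was then compared. A gene was called enriched when IP exceeded input by over 1 on the log2 scale with an adjusted p that did not exceed 0.05, and 33 members were tested (not *H19*). In WT26 8 members were enriched and in RBC 9, where 14.5% and 13.4% of all features were. In *Mettl14* KO 7 were enriched (11.9% of all features) and in *Mettl3* KO 1 (2.54%). The member medians were 0.29 in WT26, 0.28 in *Mettl14* KO, 0.22 in RBC and 0.27 in *Mettl3* KO, beside 0.02, 0.01, 0.02 and −0.01 for all features. Library scaling sets the typical feature near 0, so a loss of m6A common to all RNAs would not show.

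Enriched in both control lines were *Ndn*, *Peg12*, *Phlda2*, *Commd1*, *Mcts2* and *Peg13*. Of these 6, *Mcts2* was the highest in RBC, with log2 fold changes of 2.05 in WT26, 1.87 in *Mettl14* KO, 1.97 in RBC and 1.32 in *Mettl3* KO. Its input held 141 and 136 normalised counts in WT26 and its IP 391 and 766. *Phlda2* was the one member enriched in all 4 lines (1.61, 1.41, 1.37 and 1.51 in the same order). *Peg13* was 2.07, 1.75, 1.83 and 1.60, *Ndn* 1.63, 2.23, 1.55 and 1.68, *Peg12* 1.69, 1.8, 1.81 and 1.09, and *Commd1* 1.63, 1.11, 1.27 and 0.95. Standard errors of these values lay between 0.36 and 0.566. The exons of *Commd1* overlap those of *Zrsr1* on the other strand, so where counting ignored strand their ratios may hold shared reads. Unspliced RNA of the host genes may likewise add to the counts of *Mcts2* and *Peg13*. *Peg10* and *Zrsr1* were enriched in WT26 and *Mettl14* KO, and *Usp29*, *Zim1* and *Ppp1r9a* in RBC. *Mest* was depleted from the IP, at −1.87 in WT26 (edgeR adjusted p = 0.00686) and −1.52 in RBC (adjusted p = 0.013), and *Trappc9* (−1.34 and −0.93), *Nnat* (−1.11 and −1.05) and *Impact* (−0.96 and −0.96) were depleted in both control lines too. In WT26 *Nnat* held 146 and 145 normalised counts in input but 28 and 32.2 in RNA-seq. It lies within *Blcap* on the other strand, and where counting ignored strand unspliced *Blcap* RNA cannot be told apart from it. The ratio was higher in replicate 2 than in replicate 1 in 24 of 24 combinations of these 6 enriched members and the 4 lines. Leaving out 1 library moved the count of enriched members to between 0 and 12 for WT26, 0 and 11 for *Mettl14* KO, 0 and 9 for RBC and 0 and 2 for *Mettl3* KO, and it was 0 without IP replicate 2 of each of the 4 lines. Replicates of the same number deviated together across lines (correlation of deviations 0.782 and 0.612 for IP, 0.452 and 0.371 for input). With the replicate number as a term for each assay, a replicate block chosen after seeing the data, *Ndn* (0.99) and *Commd1* (0.71) were no longer called in RBC, nor *Zrsr1* (0.87) in *Mettl14* KO or *Ppp1r9a* (0.82) in RBC. Under this block *Peg12*, *Phlda2*, *Mcts2* and *Peg13* kept their calls in both control lines, *Peg10* became a further one, and *Peg13* was 1.42 in WT26.

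**Figure D4:**
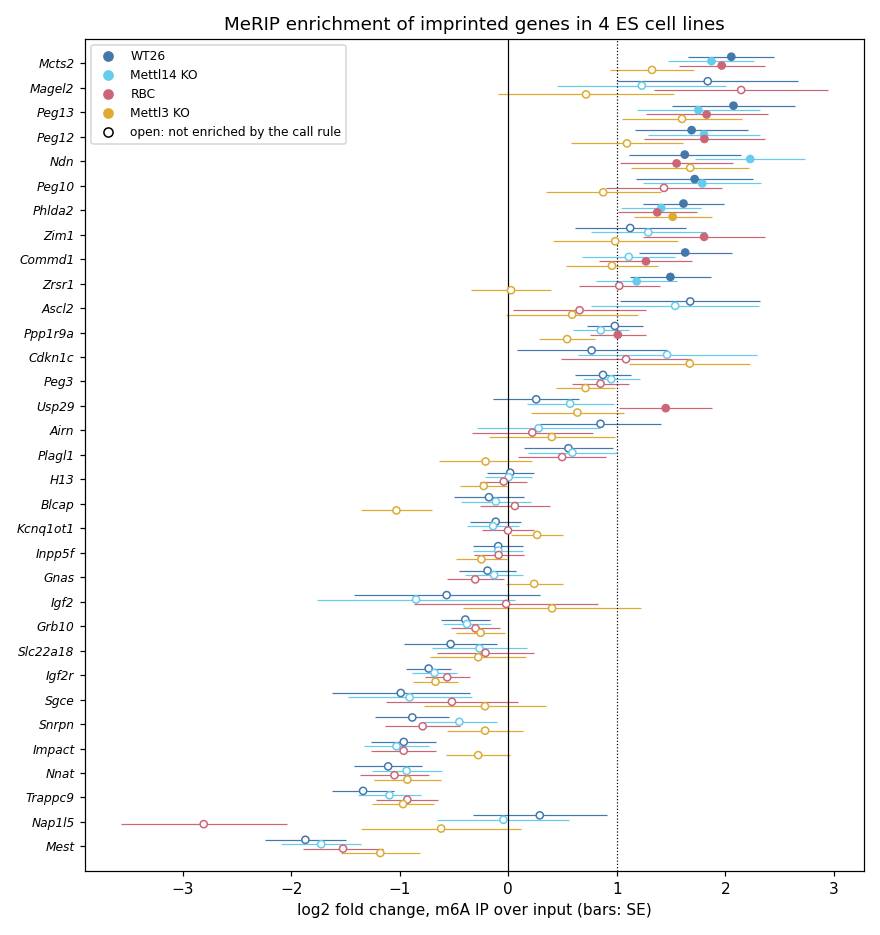
Log2 fold change of m6A IP over input (x axis) with its standard error for the 33 tested members (y axis, ordered by their mean over WT26 and RBC), one colour per line; filled points passed the call of enrichment, and the dotted line marks a log2 fold change of 1. *Mcts2*, *Peg13*, *Peg12*, *Ndn* and *Phlda2* lie in the upper part, with filled points in both control lines, and *Mest* lies at the bottom.

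The change of enrichment between a knockout and its control line, tested as a difference, was called for 0 members in *Mettl14* KO and 0 in *Mettl3* KO by edgeR's quasi-likelihood test (limit 0.05 on the adjusted p), and for 0% and 0% of the 22621 features. DESeq2 also called 0 members, with 1 and 0 features in all. At an unadjusted p under 0.05 there were 0 members in *Mettl14* KO and 1 in *Mettl3* KO, *Blcap*, at −1.09 (SE 0.46, edgeR adjusted p = 0.854), against 0.557% and 3.48% of all features. With the replicate block by assay there were 1 (*Commd1*, −0.50) and 7, against 1.59% and 20.2% of all features. The 7 were *Zrsr1* (−0.92), *Blcap* (−1.04), *Mcts2* (−0.60) and *Ppp1r9a* (−0.45), with a lower ratio in *Mettl3* KO, and *Impact* (0.70), *Gnas* (0.55) and *Nap1l5* (2.21, SE 1.01), with a higher one. The value of *Nap1l5* rested on 4 and 2 reads in the IP libraries of RBC. In that fit too none passed the adjusted p (at least 0.123). The lower count of enriched members in *Mettl3* KO is therefore not shown to be a difference from RBC. The member medians of the change were 0.04 and −0.07. For *Zrsr1*, called enriched in WT26 but not in RBC, the ratio was 1.02 in RBC and 0.03 in *Mettl3* KO, a change of −1.0 (SE 0.524). For *Mcts2* the change was −0.64 (SE 0.543). For the 6 members enriched in both control lines the standard error of the change lay between 0.506 (*Phlda2* in *Mettl3* KO) and 0.781 (*Peg13* in *Mettl14* KO), and a change of 1 on the log2 scale was within 2 standard errors. Under the replicate block by assay these standard errors were 0.219 to 0.486, the lowest being those of *Commd1*.

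Gene structure differed among the members. Of the 6 members enriched in both control lines, 4 have 1 exon in the annotation (*Ndn*, *Peg12*, *Mcts2* and *Peg13*), as does 1 of the 5 enriched in 1 control line (*Zrsr1*) and 2 of the 22 enriched in neither (*Magel2* and *Kcnq1ot1*). GGACT, a common form of the sequence at which m6A is written, was counted on the transcript strand in the longest transcript. It occurred at a median of 1.33 per kb in the first 6 members, 0.91 in the next 5 and 1.02 in the other 22, with ranges of 0 to 1.62, 0.45 to 1.33 and 0 to 3.22, beside 0.75 for the 47224 genes with a transcript. The ranges overlap, and *Mcts2* has no GGACT in its transcript. The *Dlk1-Dio3* RNAs with the largest falls in *Mettl3* KO were not called enriched in either control line. *Meg3* was −0.23 in WT26 and −0.09 in RBC, *Rian* −0.48 and −0.41, and *Mirg* −0.67 and −0.77.

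Of 36 further imprinted genes, listed for their neighbourhood or known imprinting, 26 were tested in RNA-seq. In *Mettl14* KO 1 was called up and 3 down, with a median of 0.04, and in *Mettl3* KO 1 up and 6 down, with a median of −0.24. The called shares were 15.4% and 26.9%, beside 14.5% and 13.6% of all genes in either direction. By direction, 7.95% of all genes were called up and 6.57% down in *Mettl14* KO. In *Mettl3* KO 6.15% were called up and 7.43% down, so the share of these 26 genes called down there stood above that of all genes. The largest changes in *Mettl14* KO were *Xist*, the RNA of X inactivation, at −4.58 (SE 0.24), *Tspan32*, a tetraspanin gene of the *Kcnq1* domain, at −2.74 (SE 0.246) and *Kcnq1* at 2.17 (SE 0.405). *Xist* had 419 and 343 normalised counts for WT26, 24 and 7.8 for *Mettl14* KO, 78.2 and 102 for RBC and 47 and 41.3 for *Mettl3* KO. The MeRIP input did not show this fall: *Xist* had 3660 and 3269 normalised input counts for WT26 and 3447 and 4759 for *Mettl14* KO, a log2 fold change of 0.24 (SE 0.337). *Kcnq1* was 0.04 (SE 0.448) in input, and *Tspan32* −1.31 (SE 0.438, edgeR adjusted p = 0.249). *Xist* and *Kcnq1* held far more counts in WT26 input than in WT26 RNA-seq, for *Kcnq1* 40.9 and 51.5 against 5.4 and 5.4. *Kcnq1ot1* overlaps *Kcnq1* on the other strand. Where counting ignored strand, RNA of either strand cannot be told apart, so the input does not settle the changes of *Xist* and *Kcnq1*. The largest in *Mettl3* KO was *Qpct*, a glutaminyl cyclase gene, at −1.77 (SE 0.157), and −1.29 (SE 0.482, adjusted p = 0.283) in input.

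Of 19 genes that set or keep imprints, all tested, 3 were called in each knockout (15.8%), near the called share of all genes. Dropping the fold limit gave 18 of them in *Mettl14* KO (94.7%), 5 up and 13 down, beside 52.5% of all genes. In *Mettl3* KO it gave 16 (84.2%), 7 up and 9 down, beside 53.4%. Without that limit both shares thus stood above those of all genes. Whether they stand above those of genes with similar counts was not tested. *Zfp57*, whose product holds methylation at control regions, had 11213 and 12087 normalised counts for WT26, 8457 and 8343 for *Mettl14* KO, 10047 and 10160 for RBC and 3280 and 3384 for *Mettl3* KO. In *Mettl3* KO the log2 fold change was −1.60 (SE 0.0541, edgeR adjusted p = 1.59e-13), beside −0.47 in *Mettl14* KO, a difference of −1.13 (adjusted p = 2.65e-09). Input gave −1.59 for *Zfp57* in *Mettl3* KO (SE 0.26, adjusted p = 0.0114). *Dnmt3l*, a cofactor of de novo DNA methylation, fell in both, with log2 fold changes of −2.12 for *Mettl14* KO and −1.46 for *Mettl3* KO. *Dppa3*, which protects methylation in the zygote, rose in both (adjusted p = 0.000441 and 0.000723), from 2 to 2.7 normalised counts in the control libraries to between 13 and 18.5 in the knockouts. *Tet2*, a methylcytosine oxidase gene, fell by 1.54 on the log2 scale in the *Mettl14* KO and was −0.54 in the other knockout. Whether these changes bear on the members was not tested.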

How the data were processed

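RNA-seq (8 libraries) and MeRIP (16 libraries, input and m6A IP) were carried out on nuclear RNA from both knockout lines and their control lines. The authors deposited raw counts per gene, and for MeRIP also counts per repeat subfamily. Per the labels, reads were trimmed with cutadapt 1.8.1 and aligned to GRCm38 with STAR 2.6.0c. MeRIP reads were counted with TEtranscripts 2.0.3, and 3 reactions were combined per replicate. The RNA-seq counting tool and its strand setting are not given in the sources used here.

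The members and lists were chosen with earlier results of these data known. Counts were fitted with edgeR 4.0.16 in R 4.3.3 (quasi-likelihood test), with size factors of DESeq2 1.42.0, filterByExpr and Benjamini-Hochberg adjustment over 17021 genes (RNA-seq) or 22621 features (MeRIP, scaled over all features). Each fit held all libraries of its table, in 4 or 8 groups. Replicates come from separate samples by label, and p-values measure the spread between them. Named members are those called in any RNA-seq comparison or enriched in both control lines. Other genes are given by group, with at most 4 called genes for the further imprinted genes and for the imprint regulators. Input and IP of a number came from the same RNA and are paired (deviations correlated by 0.195 to 0.28), and libraries of a number also deviated together across lines within input (0.371 and 0.452) and IP (0.612 and 0.782). Coordinates and exons are from GENCODE M21 (98.5% of gene identifiers found), windows from RefSeq GRCm38.p6. Alternatives were DESeq2's Wald test, TMM, library size, other filters, adjusted p alone, only the libraries compared, replicate blocks and leaving out each library. The block by assay was chosen after seeing the data. The tests were tried on simulated data. Tables were written with Python 3.11.15.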

Additional observations from a re-analysis of the deposited data

Results flagged for a closer look

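The change in *Mettl3* KO minus that in *Mettl14* KO passed the test of the difference (edgeR's quasi-likelihood test, Benjamini-Hochberg) for 5 members. The differences on the log2 scale were −2.49 for *Plagl1* (adjusted p = 6.57e-07), −1.94 for *Magel2* (adjusted p = 0.0472), −1.33 for *Igf2r* (adjusted p = 2.63e-10), −1.10 for *Sgce* (adjusted p = 0.00209) and 1.10 for *Peg13* (adjusted p = 0.000857). *Plagl1*, *Igf2r* and *Magel2* had estimates above 0 in *Mettl14* KO and below 0 in *Mettl3* KO, and for *Plagl1* and *Igf2r* each knockout passed the adjusted p on its own. *Sgce* was higher in both knockouts, more so in *Mettl14* KO, and *Peg13* was higher in *Mettl3* KO and −0.09 in *Mettl14* KO. The 2 knockouts come from different control lines, each from 1 clone, and clone, line and deleted gene cannot be told apart.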

How the results depend on the processing

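No result reversed its direction. In RNA-seq the counts of called members were 4 (*Mettl14* KO), 3 (*Mettl3* KO), 5 (difference) and 4 (control lines), and a replicate block, TMM, DESeq2 and the other filters kept them within 1.5 times. The adjusted p alone gave 17, 18, 14 and 18. Leaving out 1 library gave 3 to 6, 2 to 3, 3 to 5 and 3 to 6, the low of the difference being without WT26 replicate 2 (3). *Magel2* and *Igf2* were lost in most of these.

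In MeRIP the enriched members (8 in WT26, 7 in *Mettl14* KO, 9 in RBC, 1 in *Mettl3* KO) became 13, 11, 14 and 7 under library size, which moved the median of all features to 0.45, 0.45, 0.49 and 0.37. For *Mettl3* KO the count was 2 with TMM, 4 with DESeq2, 5 with no filter, 5 with only the libraries compared and 2 with a replicate block by assay. Leaving out 1 library gave 0 to 12, 0 to 11, 0 to 9 and 0 to 2. The replicate block of input and IP pairs gave 8, 7, 9 and 1, with *Peg10* in place of *Ppp1r9a* in RBC. In input (1 and 1 called) TMM gave 0 in *Mettl14* KO, no filter 2 in *Mettl14* KO, only the libraries compared 2 and 3, the replicate block by assay 2 and 2, and leaving out 1 library 0 to 0 in both. The cause of these moves was not tested. The change of enrichment stayed at 0 members in every alternative run. Each MeRIP replicate 1 library was deeper than its replicate 2 partner, so depth and replicate number cannot be told apart. In RNA-seq, replicates of the same number did not deviate together for WT26 and *Mettl14* KO (correlation of deviations −0.071). They did for RBC and *Mettl3* KO (0.453), to the degree seen within input (0.452 and 0.371).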
